A study of Rattus norvegicus with 9 samples.

Results

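Kap, Klk1 and Bdkrb2 were followed through 9 kidney RNA libraries. Kap encodes the kidney androgen regulated protein, Klk1 encodes tissue kallikrein, and Bdkrb2 encodes the bradykinin B2 receptor. The set was given as 3 identifiers, ENSMUSG00000032758 for Kap, ENSMUSG00000063903 for Klk1 and ENSMUSG00000021070 for Bdkrb2, and all 3 were found among the 17862 features listed for every library. The files hold identifiers without gene names, so the names are those that came with the set. The members were chosen by the abundance of Kap and Klk1 in these libraries, with earlier results of the same data in view, so their levels and group differences are given as descriptions, and the p-values only place them within a fit over all features.

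The labels put the libraries in 3 groups of 3, all from renal tissue at 6 weeks of age: WT, labelled normal, Model, labelled hypertension, and QDG, labelled hypertension with QDG, which stands for Qingda granule, a Chinese herbal preparation. Hypertension is therefore shared by Model and QDG, and no group was given the granule without hypertension. The sources used here do not give the strain, the sex, the way hypertension arose or the dose of the granule. They also leave unsaid whether libraries of 1 group stem from different animals, so the p-values speak only of the spread among these libraries, and that spread may be technical. The labels name the brown rat as the organism, while the identifiers are of the form that Ensembl gives to mouse genes. Whether the reads were mouse reads or rat reads assigned to mouse genes cannot be told from the files, and in the latter case levels would also depend on how well each sequence matches between the species.

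Kap is a small protein best known from the proximal tubule of the mouse kidney, where androgens act on its gene through their nuclear receptor. Klk1 is a serine protease made mainly in the connecting tubule. It cleaves kininogen to release kinin, and kinin acts on the B2 receptor, a G protein-coupled receptor whose activation relaxes vessels and favours sodium excretion. Klk1 and Bdkrb2 are thus the enzyme and the receptor of one vasodepressor pathway, the kallikrein-kinin system. Kap stands outside this pathway. In whole kidney, more cells of a type and more RNA per cell cannot be told apart.

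Kap and Klk1 varied together over the libraries, as described further on, and whether the sequences before their genes bear on this was not tested. The bases just before the start of the rat genes of these names are shown first, as a description. They come from RefSeq on build GRCr8 and give the 250 bases before each annotated start, 5′ to 3′ on the strand of the gene. Capitals mark AGAACA, searched on both strands, the half-site that the androgen and glucocorticoid receptors can bind. The Kap stretch is chr4:168409033-168409282 on the minus strand and the Klk1 stretch is chr1:103778902-103779151 on the plus strand.
Kap: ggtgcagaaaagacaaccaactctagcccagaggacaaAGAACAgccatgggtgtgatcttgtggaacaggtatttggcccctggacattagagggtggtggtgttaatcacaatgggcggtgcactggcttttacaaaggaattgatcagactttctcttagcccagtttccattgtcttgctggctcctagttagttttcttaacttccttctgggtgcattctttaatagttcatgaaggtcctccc
Klk1: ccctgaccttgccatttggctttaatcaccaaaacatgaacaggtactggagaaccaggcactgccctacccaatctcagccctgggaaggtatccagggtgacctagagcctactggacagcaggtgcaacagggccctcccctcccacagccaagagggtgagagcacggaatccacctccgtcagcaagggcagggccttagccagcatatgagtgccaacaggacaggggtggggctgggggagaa

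The Kap stretch held 1 such half-site, on the strand of the gene and beginning 212 bases before the start, and the Klk1 stretch held 0. The same letters stood on either strand in 17.5% of 33469 rat stretches of this length, so a single match is common. The full androgen response palindrome, made of this half-site and its reverse complement 3 bases apart, stood in neither stretch and in 0.012% of all, and TATAAA stood in neither and in 12.9% of all. Every palindrome also counts as a half-site. G and C made up 46.4% of the Kap stretch and 58.8% of the Klk1 stretch, against a median of 51.2%. These are matches of letters only. If the reads are of mouse, the sequences are those of another species.

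Klk1 belongs to a family of close copies, which bears on what its value holds. The rat reference lists 9 other genes named Klk1b or Klk1c with a number within 335 kb of chromosome 1 around Klk1 (chr1:103514639-103849854). The features carry identifiers of mouse form, and copies in the mouse were not counted. The sources used here do not say how reads that match several copies were counted, so the Klk1 value may include or lack reads of its copies. In the same reference, Kap lies at chr4:168405981-168409032 and Bdkrb2 at chr6:130237055-130267205.

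Levels are in FPKM, reads or fragments per kilobase of feature, scaled to a library total. Being per length, they can be compared roughly between genes. The match between species and the counting of copies, named above, limit such comparisons. Whole reads could be recovered from the steps of the deposited values. The listed features held 26.8 M to 29.4 M reads per library. Kap rested on 203842 to 818942 reads at a length of 707 bases, Klk1 on 44514 to 113934 reads at 1077 bases, and Bdkrb2 on only 25 to 51 reads at 3792 bases. Counting error was thus negligible for Kap and Klk1 and large for Bdkrb2.

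Kap was among the 5 most abundant features of every library. It stood at 30014, 20336 and 9181 FPKM in WT replicates 1, 2 and 3, at 35391, 24636 and 43169 FPKM in Model, and at 27396, 22942 and 25863 FPKM in QDG. WT replicate 3 was lower than every other library and Model replicate 3 was higher, while the group ranges overlapped in each comparison. Group means were 19844 ± 10425 FPKM for WT, 34399 ± 9306 in Model and 25400.0 ± 2263 in QDG (SD, n = 3 each). Kap was the most abundant feature in all 3 Model libraries. It ranked 3, 3 and 5 in WT and 1, 2 and 3 in QDG.

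Klk1 was less abundant than Kap in every library, at ranks 9 to 16. The WT libraries held 2184, 1847 and 1316 FPKM, those of Model 3677, 2398 and 3674 FPKM, and those of QDG 3070.4, 2479.8 and 3403 FPKM, for replicates 1, 2 and 3. Every Model and every QDG library lay above every WT library, and Model and QDG overlapped. Among the 12187 features that averaged 1 FPKM or more, 17.3% had all Model values above all WT values. All QDG values lay above all WT values for 15.2%. The share of features with both was not counted. Group means were 1782 ± 437 FPKM for WT, 3249 ± 738 in Model and 2985 ± 468 in QDG (SD, n = 3 each).

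Bdkrb2, the kinin receptor, was scarce and does not share the abundance of the other members. It stood at 0.463, 0.451 and 0.403 FPKM in WT, at 0.385, 0.413 and 0.491 FPKM in Model, and at 0.229, 0.306 and 0.475 FPKM in QDG. All groups overlapped, and the lowest QDG library, with 25 reads, had an exact Poisson 95% interval of 0.149 to 0.339 FPKM, which covers counting error only. The means were 0.439 ± 0.0317, 0.430 ± 0.0551 and 0.337 ± 0.126 FPKM (SD, n = 3 each). Its rank lay between 13636 and 15428. In each of the 9 libraries the order of levels was Kap, then Klk1, then Bdkrb2, with Kap 6.98 to 13.7 times as abundant as Klk1.

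**Figure D1:**
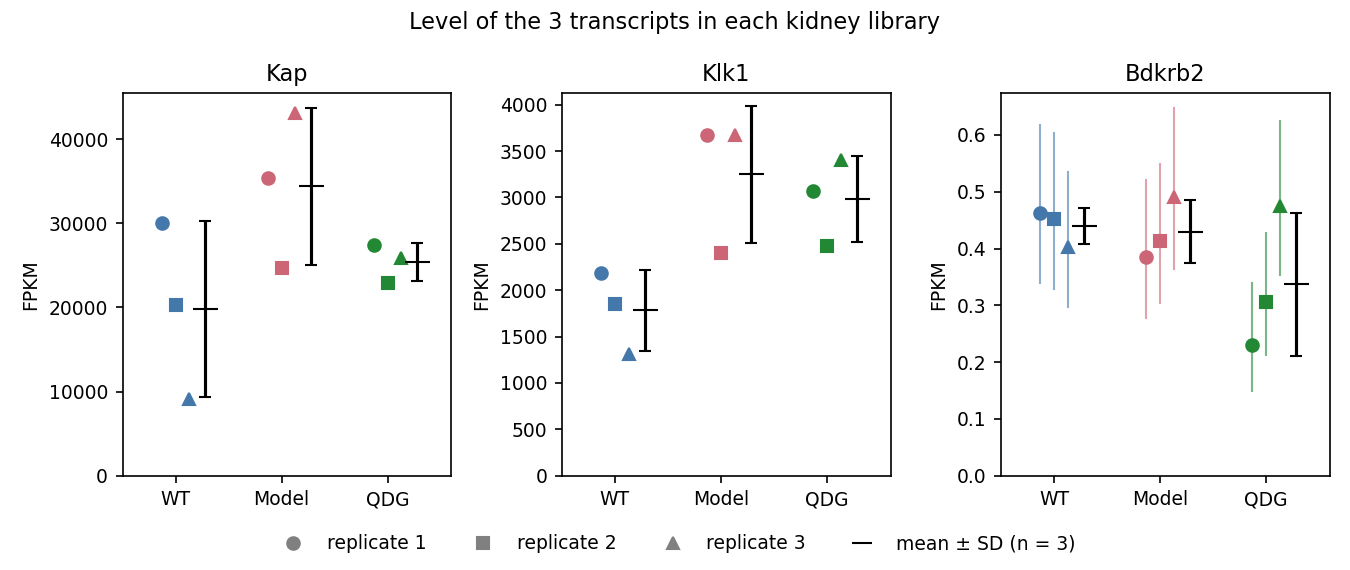
FPKM (linear axes from 0, a different scale in each panel) of Kap, Klk1 and Bdkrb2 in the 9 libraries, with 1 symbol per library and the mean ± SD of 3 libraries beside each group; thin lines for Bdkrb2 are exact Poisson 95% intervals. Klk1 in Model and QDG stands above its highest WT library at 2184 FPKM, while Kap in WT ranges from 9181 to 30014 FPKM and overlaps both other groups. Of features that averaged 1 FPKM or more, 17.3% had all Model values above all WT values, and 15.2% had all QDG values above them.

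As a share of the FPKM summed over all features of a library, which does not depend on how the library was scaled, Kap alone took 6.205%, 4.87% and 2.48% in WT, 8.09%, 6.11% and 8.81% in Model, and 6.54%, 5.81% and 6.08% in QDG. The mean shares were 4.52% ± 1.89 in WT, 7.67% ± 1.40 in Model and 6.14% ± 0.371 in QDG (SD, n = 3 each). The lowest Model library lay just under the highest WT library, and all other Model values lay above WT. Because Kap is a short feature, its share of recovered reads was smaller, at 1.39% ± 0.657, 2.38% ± 0.510 and 1.82% ± 0.126.

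The Klk1 share in WT was 0.452%, 0.443% and 0.355%, that in Model 0.841%, 0.595% and 0.750%, and that in QDG 0.733%, 0.628% and 0.800%. All 6 hypertensive libraries again lay above all 3 WT libraries. In FPKM, 17.3% of features that averaged 1 FPKM or more lay above WT in this way in Model, and 15.2% in QDG. How many did so in both, or as a share, was not counted. The mean shares were 0.417% ± 0.0532, 0.729% ± 0.124 and 0.720% ± 0.0870 (SD, n = 3 each), so Model and QDG differed by far less than the spread between their libraries. Bdkrb2 held 0.000104% ± 7.38e-06 in WT, 9.70e-05% ± 7.81e-06 in Model and 8.13e-05% ± 2.87e-05 in QDG.

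**Figure D2:**
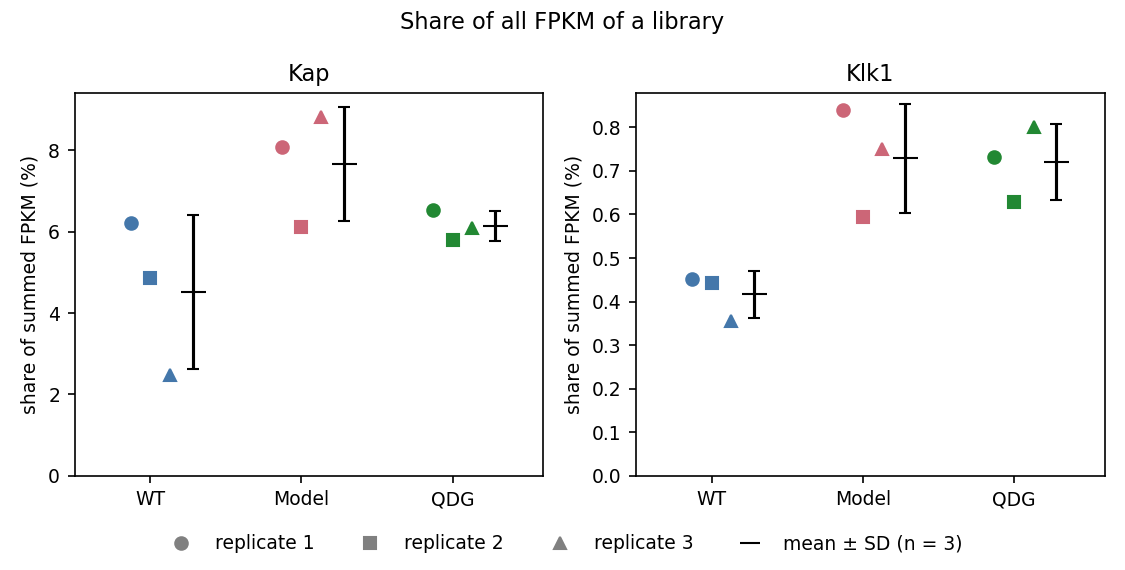
Share of the summed FPKM of a library (percent, axes from 0) held by Kap and by Klk1, with 1 symbol per library and the mean ± SD of 3 libraries. Klk1 takes 0.355% to 0.452% in WT and 0.595% to 0.841% in Model and QDG, and Kap reaches 8.81% in Model replicate 3.

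Model was compared with WT to ask what differs in the hypertensive kidney. On the log2(FPKM + 1) scale Klk1 was higher by 0.87 with an SE of 0.25, a 1.83-fold difference with a 95% interval of 1.25 to 2.68, and Kap was higher by 0.92 with an SE of 0.40, a 1.89-fold difference with an interval of 1.02 to 3.50. Neither passed an adjusted p of 0.05 in the limma fit over the 12187 features that averaged 1 FPKM or more, with adjusted p = 0.0573 for Klk1 and 0.169 for Kap. Thus 0 of the 2 members in the fit were called, where 7.9% of all features in it were. At an unadjusted p under 0.05 both members passed, as did 27.97% of all features. The SEs rest on a spread shared by all 3 groups, although the spread of Kap differed between them. With only WT and Model fitted, the interval was 0.918 to 3.88 for Kap and 1.19 to 2.81 for Klk1. The unadjusted limma p of Kap was then 0.0770. Bdkrb2 was under the limit and outside this fit. It stood at 0.979 of its WT level.

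In size the Kap and Klk1 differences were far up the list of all features, at percentiles 98.6 and 98.4, where the median difference was 0.02. For 17.3% of the features all 3 Model values lay above all 3 WT values, as for Klk1, and for 10.9% all lay below. The differences rested to unlike degrees on WT replicate 3, the library with the least of both transcripts. Without it the Kap difference was 0.44 (a 1.36-fold difference, limma adjusted p = 0.346) and the Klk1 difference 0.67 (1.59-fold, limma adjusted p = 0.1002). Their percentiles were then 87.5 and 94.9. Without Model replicate 2, where Klk1 was lowest of its group, the Klk1 difference was 1.07 and passed (limma adjusted p = 0.0300). Klk1 passed in 5 of 20 alternative fits, with adjusted p between 0.0195 and 0.165 over all 20, and Kap passed in 1, with adjusted p between 0.0424 and 0.483.

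**Figure D3:**
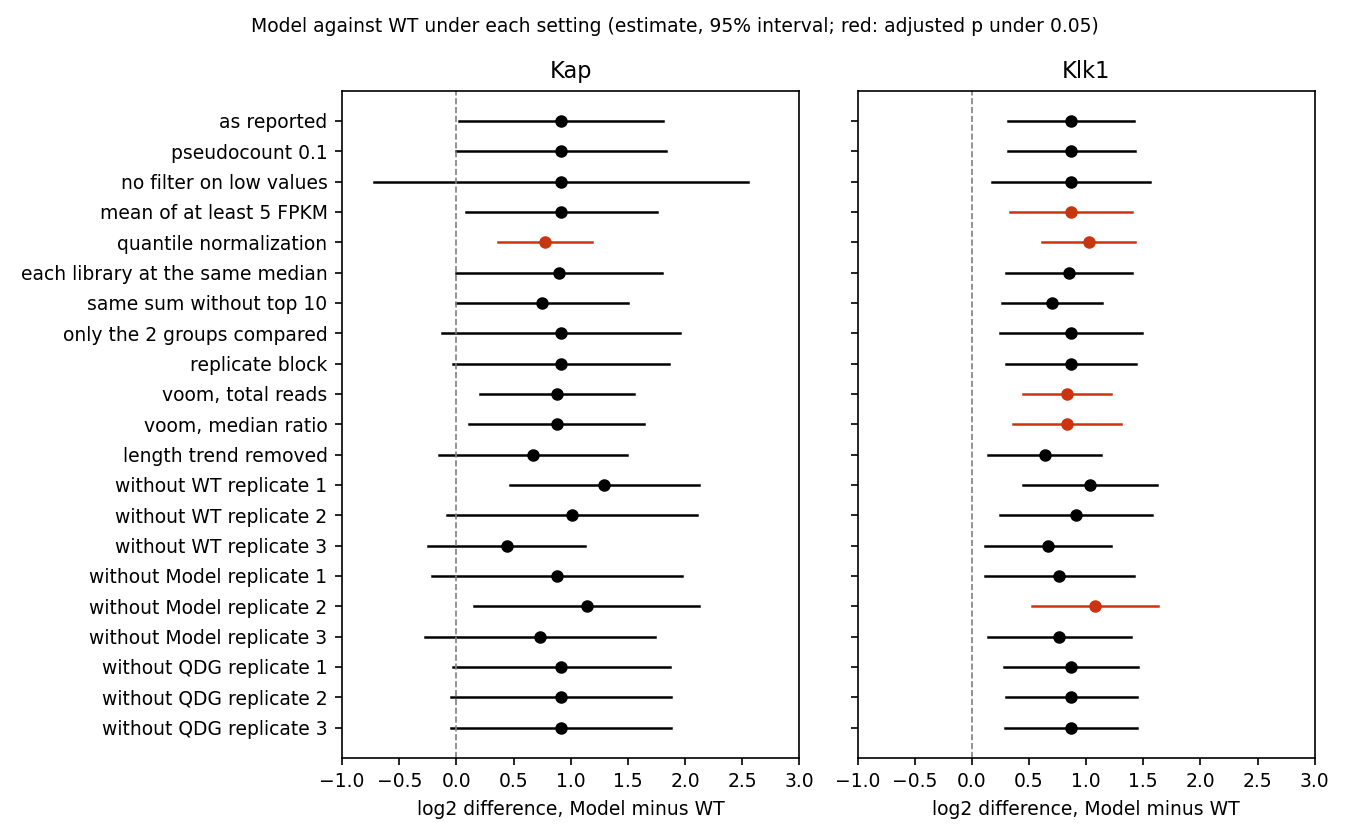
Log2 difference of Kap and of Klk1 between Model and WT (horizontal axis, Model minus WT) in the reported fit and in 20 alternatives; points are limma estimates, bars are unadjusted 95% intervals, and red marks an adjusted p under 0.05. The Klk1 estimate stays between 0.64 and 1.07, and the Kap estimate between 0.44 without WT replicate 3 and 1.29 without WT replicate 1.

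Short features as a class stood higher in Model, and both transcripts are short. The median difference between Model and WT was 0.21 for the 1187 features under 1000 bases, 0.20 for the 1538 of 1000 to 2000 bases and −0.11 for the 3256 over 6000 bases. When the length trend of each library was removed, the Kap difference was 0.67 and the Klk1 difference 0.64, with limma adjusted p = 0.278 and 0.110. The 28 features with a mean of 1000 FPKM and over had a median difference of −0.07. Their differences were widely spread, with quartiles of −0.52 and 0.58, against −0.16 and 0.23 for all features in the fit. The part of length in the Kap and Klk1 differences was not tested beyond this.

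QDG was compared with Model to ask what differs when hypertensive animals receive the granule. Kap was lower in QDG by a log2 of −0.40 with an SE of 0.40, a ratio of 0.756 with a 95% interval of 0.407 to 1.40. Klk1 differed by −0.11 with an SE of 0.25, a ratio of 0.928 with an interval of 0.634 to 1.36. Neither passed (limma adjusted p = 0.670 and 0.866), in a fit that called 0% of its features. That fit had 1695 features (13.9%) at an unadjusted p under 0.05, Kap and Klk1 not among them, and voom on recovered reads also called 0. The Kap interval thus runs from less than 0.5 of the Model level to well above it. Its width includes the spread of the WT libraries, and with only QDG and Model fitted it was 0.493 to 1.16. Both transcripts overlapped between these groups, where 16.3% of features had all QDG values below all Model values and 10.4% had all above. Among short features as a class QDG stood lower, with a median difference of −0.22 under 1000 bases. With the length trend removed the Kap difference was −0.17, and that of Klk1 changed sign to 0.10, as it did without QDG replicate 2 (0.0203). Bdkrb2 stood at 0.784 of its Model level. In a fit with no limit on low values, its difference did not pass (log2 −0.10, SE 0.07, limma adjusted p = 0.600). At such low levels the pseudocount of 1 shrinks this value, which was −0.31 with a pseudocount of 0.1.

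QDG was also compared with WT, a comparison that shares its WT libraries with that of Model and is not independent of it. Klk1 was higher in QDG by a log2 of 0.76 with an SE of 0.25, a 1.70-fold difference with a 95% interval of 1.16 to 2.48, and Kap by 0.51 with an SE of 0.40, a 1.43-fold difference with an interval of 0.768 to 2.65. Neither passed (limma adjusted p = 0.122 and 0.490), so 0 of 2 members were called where 2.47% of all features were. At an unadjusted p under 0.05 Klk1 passed and Kap did not, where 21.3% of all features passed. All 3 QDG values lay above all 3 WT values for 15.2% of features, Klk1 among them, and below for 12.5%. Without WT replicate 3 the Kap difference was 0.0361, a ratio of 1.03, whereas Klk1 stood at 0.56, a ratio of 1.47 (limma adjusted p = 0.952 and 0.179). The median difference of features under 1000 bases was 0.02 here. With the length trend removed, Klk1 stood at 0.74 and Kap at 0.499, and 530 features were called in place of 301. Bdkrb2 stood at 0.767 of its WT level.

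The spread of Kap within a group was itself uneven. Its SD on the log2(FPKM + 1) scale was widest in WT (0.87), then Model (0.41), then QDG (0.13), at percentiles 99.6, 93.7 and 69.4 of all features in the fit. All features also varied most in WT and least in QDG, with median SDs of 0.19, 0.15 and 0.09. Among the 28 features with a mean of 1000 FPKM and over, Kap ranked 2, 5 and 17 from the most spread in WT, Model and QDG. The median SDs of those 28 were 0.36, 0.23 and 0.18. The SDs of Klk1 were 0.37, 0.36 and 0.23 in the same order, below that of Kap in WT and Model and above it in QDG.

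Kap and Klk1 tended to be high in the same libraries. Over the 9 libraries Pearson's r between their log2(FPKM + 1) values was 0.88 and Spearman's rho 0.78. Without WT replicate 3 and Model replicate 3, the libraries farthest from the median for Kap, r was 0.67 over 7. These values are a description over libraries of 3 groups, whose values also share the scaling of each library, and 106 features had a higher r with Kap than Klk1 did. Bdkrb2 had an r of 0.11 with Kap and −0.05 with Klk1. Its few reads leave a large counting error, which can hide a correlation.

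The ratio of Kap to Klk1 within a library does not depend on that scaling. WT had ratios of 13.7, 11.0 and 6.98, Model of 9.62, 10.3 and 11.8, and QDG of 8.92, 9.25 and 7.60. The mean log2 ratios were 3.35 ± 0.50, 3.39 ± 0.15 and 3.10 ± 0.15 (SD, n = 3 each). WT held both the highest and the lowest ratio and overlapped both other groups.

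**Figure D4:**
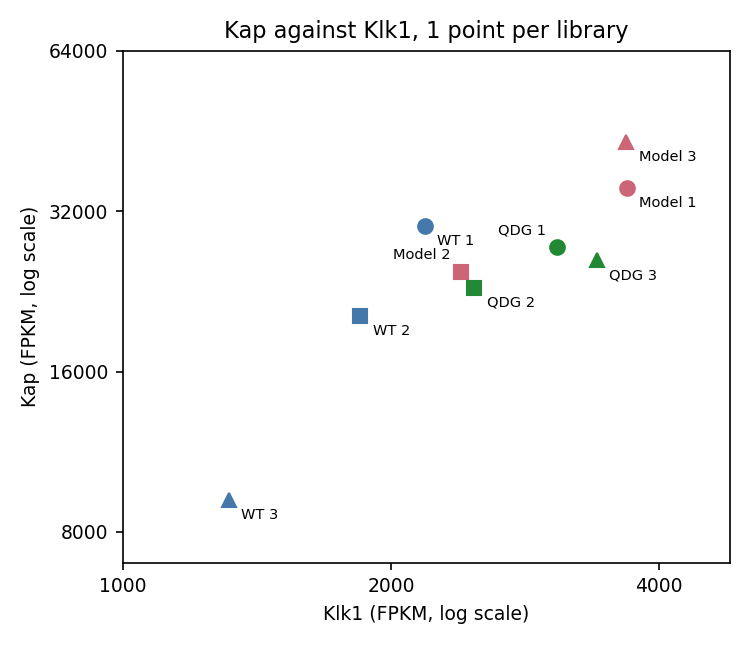
Kap against Klk1 in FPKM (both axes on a log scale), with 1 labelled point per library, coloured by group. WT replicate 3 lies lowest on both axes and Model replicate 3 is highest for Kap, and WT replicate 1 has more Kap for its Klk1 than any other library, at a ratio of 13.7.

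Measures of the libraries moved in part with Kap. The total implied by the FPKM steps, divided by the reads in the listed features, was highest in WT replicate 3 (1.11), where Kap was lowest, and lowest in Model replicate 3 (0.938), where Kap was highest. Over the 9 libraries, r between this ratio and Kap was −0.85 and rho −0.80, and r without those 2 libraries was −0.45. The implied total also divides the FPKM of every feature, so a negative r is in part built in. For Klk1, r was −0.64 and −0.01 without them. The median deviation of features under 1000 bases from their mean over all libraries was 0.28 in Model replicate 3 and −0.06 in WT replicate 3. It was lowest in WT replicate 2, at −0.18. Its r with Kap was 0.60, and 0.42 without Model replicate 3 and WT replicate 2. The part of these measures in the Kap differences was not tested. In CPM, the recovered reads scaled to the reads in the listed features without the implied totals, Kap stood at 13899 ± 6570 in WT, 23845 ± 5101 in Model and 18243 ± 1258 in QDG (SD, n = 3 each), with the same overlap, and the Klk1 groups separated as in FPKM.

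The features most like each member over the 9 libraries are given by identifier because no name is paired with them. For Kap this was ENSMUSG00000028167 (r = 0.98, rho = 0.98), at 66.5 ± 12.9, 83.3 ± 10.4 and 72.2 ± 4.62 FPKM in the order WT, Model, QDG. For Klk1 it was ENSMUSG00000085826 (r = 0.97, rho = 1.00), at 4.18 ± 0.605, 6.89 ± 1.56 and 6.23 ± 0.640 FPKM. For Bdkrb2 it was ENSMUSG00000029817 (r = 0.93, rho = 0.80), at 6.42 ± 0.594, 6.52 ± 0.541 and 5.04 ± 1.33 FPKM (SD, n = 3 each). Each was the highest of 12186 or 12187 correlations over 9 points. An r of 0.9 or more was reached by 61 features with Kap, 75 with Klk1 and 2 with Bdkrb2. Lists of other kallikrein-kinin genes, of androgen-regulated kidney genes and of kidney cell type markers, written in symbols, could be matched to no identifier and have no values here, so the labelled tissue was not checked against its markers.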

How the data were processed

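Ribosomal RNA-depleted RNA of 9 kidney samples was sequenced, per the labels' protocols. The authors' deposited values, 1 for each feature of a library, are read as FPKM from their steps and lengths, because no header states a unit. Limma is the tool that the submitters' processing notes name. The sources used here give no aligner, counter, build or annotation. Whole reads and lengths were recovered for 17862 of 17862 features, to within 0.001 read or a relative 2e-08. The implied totals were not whole, and 4 of 9 were smaller than the reads in the listed features (ratios of 0.938 to 1.11), so they are scaled totals and not read totals. The sources used here do not name the scaling.

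From the deposited FPKM, log2(FPKM + 1) was fitted with limma 3.58.1 (R 4.3.3) over all 9 samples with an intensity trend, for the 12187 features that averaged 1 FPKM or more. P-values were two-sided and adjusted by Benjamini-Hochberg over all features in the fit. The fit was tested on simulated data. Alternatives changed the pseudocount, the limit, the scaling, the samples, a replicate block, and used voom on recovered reads. The named genes were the 3 members and, for each, the feature with the highest correlation. The members and lists were chosen with earlier results of these data known. Promoters were read with Python 3.11.15.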

Additional observations from a re-analysis of the deposited data

How the results depend on the processing

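Over 20 alternative fits, Kap kept its direction in all 3 comparisons. It passed the threshold only in Model against WT after quantile normalization (log2 0.77, limma adjusted p = 0.0424). Klk1 in Model against WT passed with a limit of 5 FPKM (0.87, adjusted p = 0.0395), quantile normalization (1.02, 0.0195), voom on total reads (0.83, 0.0276), voom on the median ratio (0.83, 0.0371) and without Model replicate 2 (1.07, 0.0300). In QDG against WT it passed with voom on total reads (0.76, limma adjusted p = 0.0437). In QDG against Model its sign changed with equal FPKM sums without the 10 most abundant features (0.0439), with the length trend removed (0.10) and without QDG replicate 2 (0.0203). The cause was not tested.

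Leaving out 1 library gave Kap 0.44 (without WT replicate 3) to 1.29 in Model against WT, −0.63 to −0.22 in QDG against Model and 0.0361 to 0.89 in QDG against WT, and Klk1 0.67 to 1.07, −0.31 to 0.0203 and 0.56 to 0.92. Bdkrb2 was tested only in the fit with no limit on low values (limma adjusted p = 0.953, 0.600 and 0.454). Its difference moved beyond 1 SD with equal sums in Model against WT (−0.0599, from −0.01). With a pseudocount of 0.1 it was −0.31 (from −0.10) in QDG against Model and −0.34 (from −0.11) in QDG against WT. The SD is that of log2(FPKM + 1), so values with the other pseudocount, on another scale, cannot be measured against it.

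The number of features called in Model against WT was 963, 144 with only the 2 groups, and 195 to 1529 with 1 library left out, over 1.5 times away on leaving out any library but Model replicate 2. In QDG against Model it was 0, 1 with only the 2 groups, and 0 to 3. In QDG against WT it was 301, 515 after quantile normalization, 486 with only the 2 groups, 530 with the length trend removed, and 39 to 775, over 1.5 times away without WT replicate 1 or 3, Model replicate 2 or any QDG replicate. With a replicate block the counts were 533, 0 and 154, and neither Kap (0.92, limma adjusted p = 0.209) nor Klk1 (0.87, limma adjusted p = 0.0834) passed in Model against WT. Same-numbered libraries did not deviate together more than others (correlations of −0.33 to 0.14, against −0.24 to 0.43 between different numbers). With 3 libraries a group this cannot tell whether the numbers pair the samples.

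Shares depend on what is summed. Without the other most abundant features, Kap held 6.50%, 9.84% and 8.31% in WT, Model and QDG, Klk1 0.638%, 1.04% and 1.07%, and Bdkrb2 0.000158%, 0.000138% and 0.000121%. Of recovered reads, Kap held 1.39%, 2.38% and 1.82%, Klk1 0.193%, 0.344% and 0.326%, and Bdkrb2 0.000169%, 0.000161% and 0.000130%.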
